A study of Sparus aurata with 16 samples.

Results

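Among the 25225 sequences on an oligonucleotide array of the gilthead sea bream Sparus aurata, 71 had a much lower signal in the white skeletal muscle of starved juveniles than in that of fed juveniles, while their mean signal in the liver differed little between starved and fed fish. These sequences were chosen by their measured values. The level used is the log2 of the processed signal, which is the intensity of a spot after the scanner software had subtracted background and balanced the dyes, averaged over the spots of a sequence in a fish. A sequence was kept when the mean of the 4 starved fish lay at least 2 below the mean of the 12 fed fish in muscle, all 4 starved fish lay below all 12 fed fish, a spot was well above background in the muscle of all 12 fed fish, and the means of starved and fed liver differed by less than 0.5. All differences between starved and fed fish given here are therefore descriptions of the choice, in muscle and in liver, and none of them was tested.

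The study kept 1 group of fish without food for 23 days, while 3 groups received food once a day, at 25 g per kg of body weight. The diets were LLH (low protein, low lipid, high carbohydrate), MHL (medium protein, high lipid, low carbohydrate) and HLL (high protein, low lipid, low carbohydrate), and 4 fish of each group were measured in each tissue. Each array carried the RNA of 1 fish in Cy5 and of a fish of another group in Cy3, on 8 arrays for each tissue. On 1 liver array the labels disagree on the Cy5 fish, given as HLL in one field and as LLH in another, and the title, which says HLL, was followed.

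White skeletal muscle makes up most of the body of a teleost and is its main store of protein. Its growth depends on feeding, and a fish deprived of food draws on muscle protein and lowers the synthesis of new protein there, whereas the liver turns to releasing glucose and lipid. The array was built from transcripts assembled from sequencing of these same tissues, so that an entry is called an isotig (a transcript put together from overlapping reads), a contig (a stretch of such a transcript) or, with a name that starts with IFXJ, a single read. The 71 sequences comprised 57 isotigs, 1 contig and 13 single reads, that is 80.3% isotigs and 18.3% reads, against 77.3% and 22.4% of the array. None of the 71 names was paired with a gene in the sources used here, and 0 matched the RefSeq gene table, so that no function is given for any of them and the sequences are described by their levels.

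Between 56.0 and 65.3% of the spots were well above background in a muscle channel and between 57.9 and 66.6% in a liver channel, and no spot was saturated. Over all sequences the processed signal was on the median 0.52 higher in starved than in fed muscle and 0.24 higher in starved than in fed liver, on the log2 scale. The channels of an array had nearly equal medians. On the muscle arrays with a starved fish the medians over spots lay between 5.98 (LLH fish 3) and 6.53 (HLL fish 4). On those without a starved fish they lay between 5.40 (MHL fish 3) and 5.82 (MHL fish 4). In this shift starvation and the brightness of the arrays cannot be told apart. The decreases described here went against the shift. After centring each channel on its median the 71 sequences had median differences of -3.52 in muscle and -0.24 in liver. Of the tissue markers, PKL, the liver form of pyruvate kinase, averaged 6.14 ± 0.53 in fed muscle and 10.42 ± 0.52 in fed liver (SD, n = 12 each). PKM, the muscle form, was dim in both tissues, with 4.53 ± 0.50 in fed muscle and 3.99 ± 0.57 in fed liver (SD, n = 12 each) and overlapping fish, so that it did not mark the muscle on this array.

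The conditions on muscle alone left 141 sequences. A difference of at most -2 was met by 297, 149 of these also separated starved from fed fish, and 141 were also well above background in all fed muscles. In the liver, 71 of the 141 lay within the limit, 43 were at least 0.5 higher in starved fish, 24 were between 0.5 and 2 lower, and 3 were lower by 2 or more. Just inside the muscle threshold lay IFXJFUR02HUHLD at -2.02, isotig17276 at -2.06 and isotig15038 at -2.08, and just outside it isotig01276 at -1.99, isotig04142 at -1.98 and isotig04002 at -1.98. At the liver limit, IFXJFUR01EWPSJ was kept with a liver difference of 0.495, contig00793 with 0.491 and IFXJFUR02HF9P3 with 0.487, whereas isotig11273 with 0.503, IFXJFUR01CP62W with 0.510 and IFXJFUR01BIID4 with 0.538 were not.

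Over the 71 sequences the muscle difference, starved minus fed, had a median of -3.01 and ran from -6.11 to -2.02, and the liver difference had a median of 0.07 and ran from -0.41 to 0.50. The median signal of the 71 was 6.03, 5.60, 5.99 and 6.47 in the muscle of the starved fish 1 to 4. In fed muscle it lay between 8.99 (LLH fish 1) and 10.36 (HLL fish 4). The difference was -4 or below for 16 sequences, between -4 and -3 for 20 and above -3 for 35. Of these, 2, 5 and 4 were not well above background in any starved fish, so that the size of their difference was not measured. The gap between the highest starved and the lowest fed fish was on the median 1.03. It was narrowest in isotig15180 (0.03), isotig02981 (0.07), isotig02982 (0.09) and contig00793 (0.09), where 1 fish decided whether the groups met. Set against single diets, the median muscle difference was -2.78 for starved minus LLH, -2.91 for starved minus MHL and -3.12 for starved minus HLL.

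**Figure D1:**
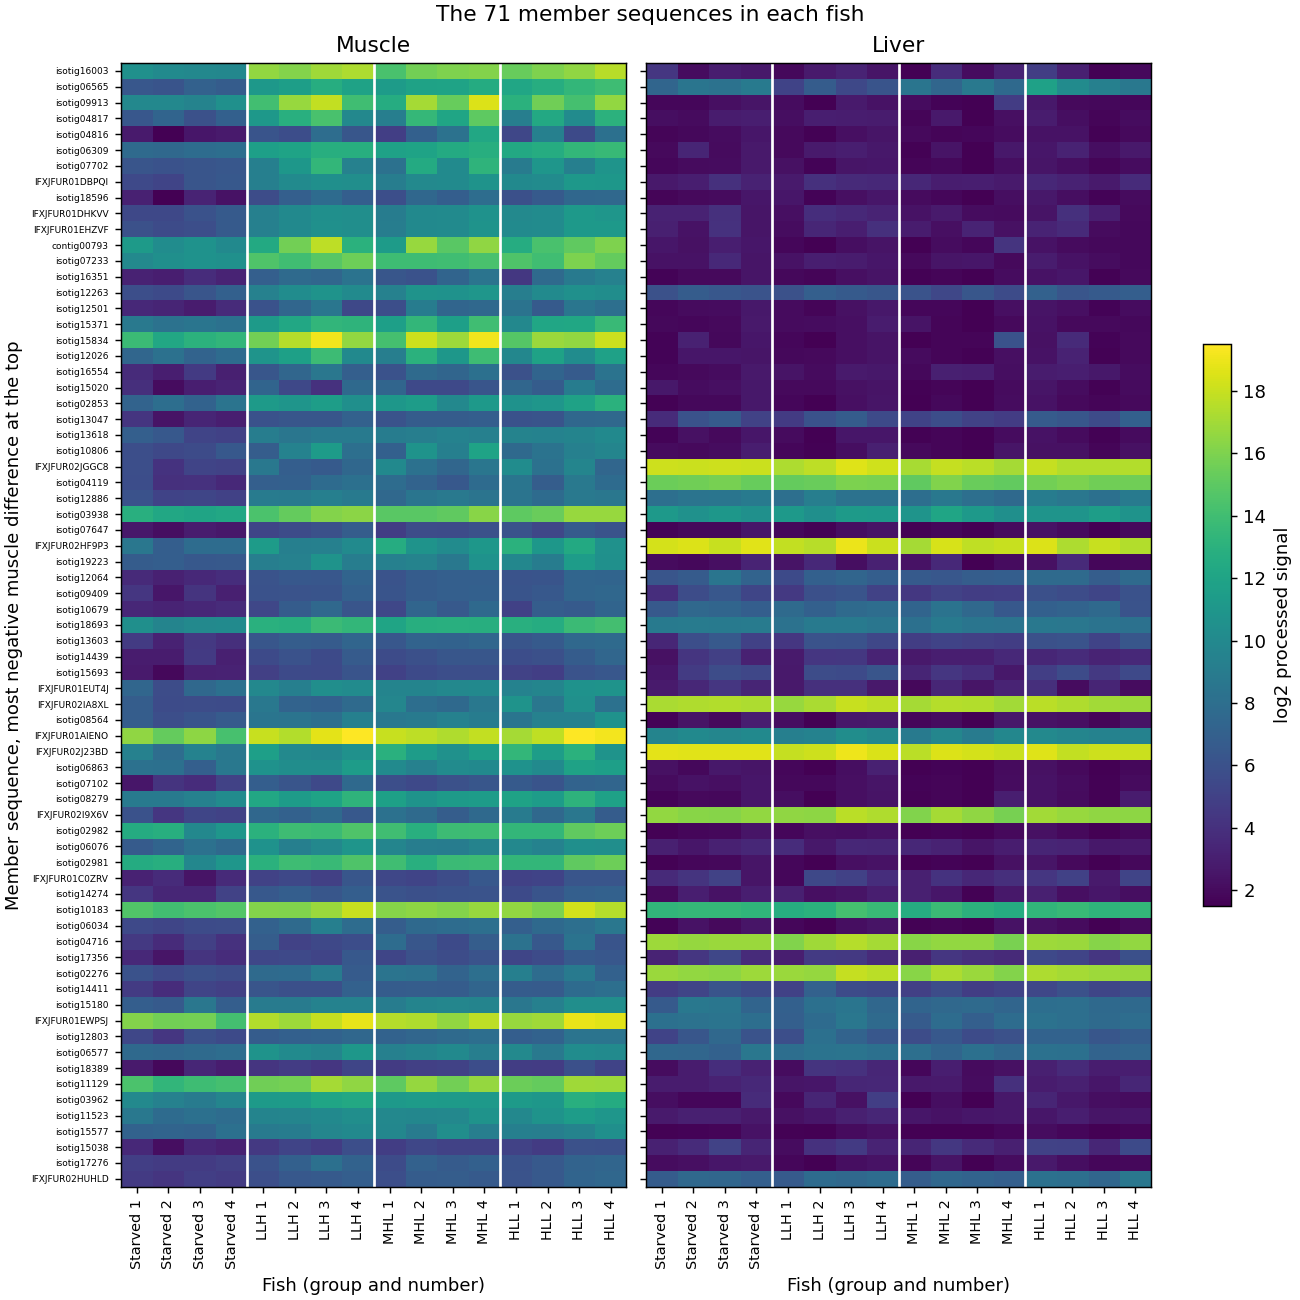
Log2 processed signal (colour) of the 71 sequences (rows, most negative muscle difference at the top) in the muscle (left) and liver (right) of each of the 16 fish (columns, starved, LLH, MHL and HLL, 4 fish each). The starved columns are darker than all fed columns in muscle. In liver most rows are dark, 8 rows are bright, and others lie between, among them isotig10183 and isotig03938.

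The most negative difference was that of isotig16003, an abundant muscle sequence. Its signal was 10.52, 10.12, 9.91 and 9.86 in the 4 starved fish. In fed muscle it had a lowest value of 14.35, a median of 16.15 and a highest value of 17.54. The groups were separated by 3.83, and the means of 10.10 ± 0.30 in starved muscle (SD, n = 4) and 16.21 ± 0.87 in fed muscle (SD, n = 12) were 69.0-fold apart. In liver this sequence was well above background in 3 of 16 fish and averaged 3.01 in starved and 2.72 in fed fish.

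Second came isotig06565, which had a signal of 6.40, 6.14, 7.07 and 6.76 in starved muscle. In fed muscle its lowest value was 11.08, its median 12.05 and its highest 13.88, a separation of 4.02, which was the widest of the 71. Unlike isotig16003 it was well above background in all 16 livers, where the mean was 8.26 in starved and 7.99 in fed fish. Its range over the fed fish was 2.79, against a median of 2.33 for the 71. A narrower range, 1.98, was that of isotig06309. Here the starved fish had 7.73, 7.57, 7.89 and 7.99, and the fed fish had a lowest value of 11.65, a median of 12.55 and a highest value of 13.63. These starved fish lay within 0.42 of each other on the log2 scale and 3.66 below the nearest fed fish.

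A different form was taken by isotig09913, isotig04817 and isotig07702, which were low and uniform in starved fish and varied widely among fed fish. The signal of isotig09913 was 9.89, 9.91, 9.55 and 10.55 in starved muscle, against a lowest value of 12.61, a median of 15.48 and a highest value of 18.52 in fed muscle. For isotig04817 the starved fish had 6.41, 7.27, 5.99 and 7.0, and the fed fish a lowest value of 9.18, a median of 12.24 and a highest value of 15.06. In isotig07702 the starved values of 6.22, 6.04, 6.25 and 6.38 spanned 0.35, whereas the fed values spanned 5.15, between 8.24 and 13.39. Fed fish thus differed from each other by about as much as the group means did. A range above 4 over the fed fish was seen in 11 of the 71 sequences, and the median range was 2.33.

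The neighbouring names isotig04816 and isotig04817 differed in level. For isotig04816 the starved fish had 2.77, 1.5, 2.57 and 2.77 and the fed fish a lowest value of 4.86, a median of 6.67 and a highest value of 12.32. None of the 4 starved fish was well above background for it, so that its starved level is a bound and the order of those 4 values has no meaning. The same held for isotig18596, with 3.14, 1.54, 3.26 and 2.35 in starved muscle and a lowest value of 5.65, a median of 6.92 and a highest value of 7.95 in fed muscle. The other neighbouring pair, isotig02981 and isotig02982, gave nearly the same values in each fish, with means of 11.54 and 11.56 in starved muscle and 13.92 and 13.95 in fed muscle.

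The single reads IFXJFUR01DBPQI, IFXJFUR01DHKVV and IFXJFUR01EHZVF also ran as one. In starved muscle IFXJFUR01DBPQI had 5.46, 5.20, 6.24 and 6.47, and in fed muscle a lowest value of 9.11, a median of 10.16 and a highest value of 11.08. For IFXJFUR01DHKVV the starved values were 5.43, 5.39, 6.0 and 6.59 and the fed values lay between 9.04 and 11.16. All starved fish were below 7 and all fed fish above 9 for both reads. Whether reads and isotigs that ran together come from 1 transcript was not tested.

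**Figure D2:**
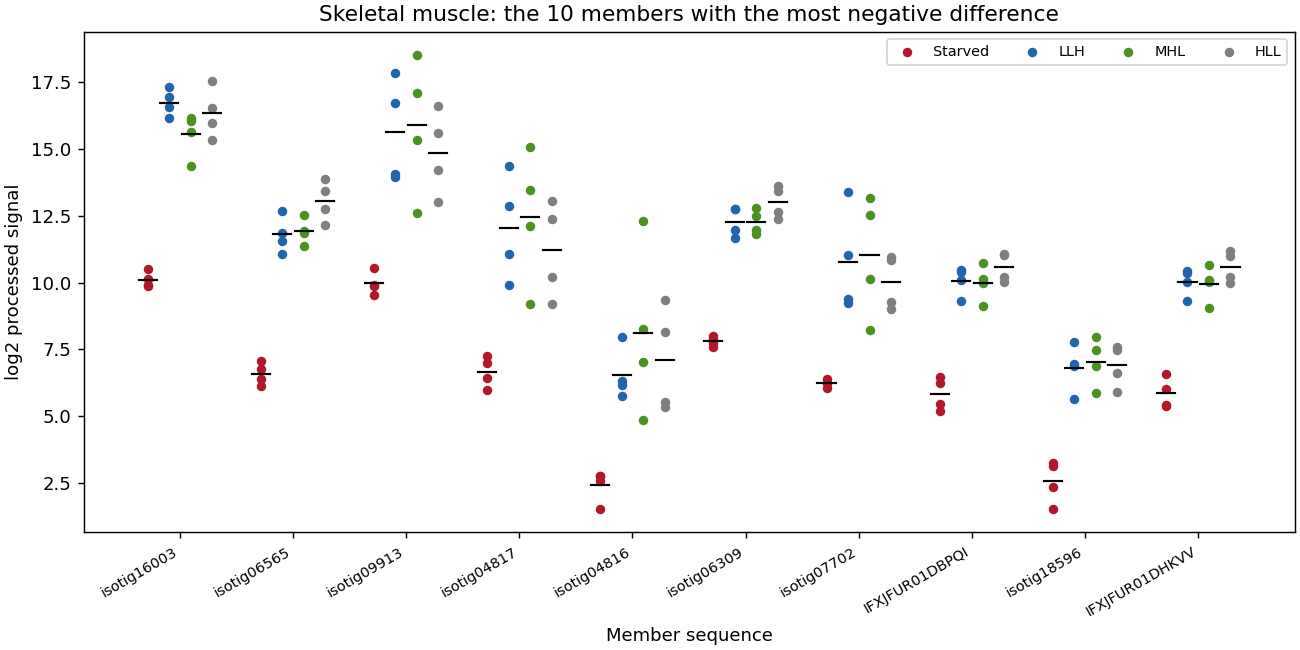
Log2 processed signal of the 10 sequences with the most negative difference in skeletal muscle, in each of 4 starved, 4 LLH, 4 MHL and 4 HLL fish (points), with group means (bars). The starved fish of isotig16003 lie between 9.86 and 10.52 and its fed fish between 14.35 and 17.54, whereas the fed fish of isotig09913 spread between 12.61 and 18.52.

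In starved muscle 51 of the 71 sequences were still well above background in all 4 fish, 9 in 1 to 3 fish and 11 in none. For these 11 a fold is given only on the intensities after background correction and normalisation. It sets the mean of the 12 fed fish over a mean in starved fish. Each starved value was the higher of the sequence's own value and the lowest value of any probe well above background in that channel. By this measure isotig04816 was 2.98-fold lower, isotig16554 2.22-fold lower and isotig18596 2.14-fold lower in starved muscle. The median was 1.81-fold, and the smallest was that of isotig18389 at 1.29-fold. The own value was used in every starved fish for isotig16554, isotig13047, isotig12064, isotig15693, isotig15038, isotig18389 and isotig10679, which gave the median. Their fold is thus the plain normalised difference between signals of which the starved ones were not well above background. These folds are therefore not firm lower bounds. The normalised scale compresses dim signals. On it the median difference over the 71 was -2.20, 39 sequences lay at or below -2, where they still met the whole rule, and 56 at or below -1, and the 4 starved fish lay below all 12 fed fish in 66. The folds of bright sequences also moved between the scales, upwards for isotig16003 (89.4-fold normalised, 69.0-fold processed) and IFXJFUR01AIENO (9.14-fold normalised, 5.97-fold processed). The fold of isotig06565 moved downwards (34.7-fold normalised, 50.8-fold processed). This sequence was bright in fed muscle but dim in starved muscle (mean 6.59 processed, 6.85 normalised).

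Of the 71 sequences, 68 were measured by a pair of probes. Both probes had a difference of -2 or below in 60 of these, both separated starved from fed fish in 62, and in none was a probe above -1. The rule used the mean over the spots of these same probes, so that these counts follow in part from the choice. The pair differed by more than 1 in 6 sequences, and most in isotig04716, where 1 probe gave -1.18 with overlapping fish and the other -3.36. Across the 12 fed muscles the probes of a pair correlated with a median r of 0.98. Set against the fed fish on its own array, where the rule already places the starved fish lower, the starved fish was at least 2-fold lower on all 4 arrays for 66 of the 71.

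The levels in the 2 tissues put the sequences into classes. In fed fish 60 of 71 (84.5%) had a higher mean signal in muscle than in liver, against 55.5% of the 14991 sequences well above background in all fed muscles. The 71 had a median difference of 4.80, fed muscle minus fed liver, against 0.19 for those 14991. The rule asks for a large decrease in muscle and a small difference in liver, which the 14991 need not meet. These shares can therefore follow in part from the choice. Muscle and liver were hybridised on separate slides, so that tissue and slide cannot be told apart here.

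No liver channel was well above background for 22 of the 71 (31.0%), against 4.03% of the 14991. A sequence near background in liver meets the liver limit easily, so that this share too can follow in part from the choice. For these 22 a liver difference near 0 is one between values near background, and it does not show how starvation acted there. They had a median fed muscle level of 8.42 and included isotig02982, isotig02981, isotig15371, isotig07702 and isotig18596. A further 23 were well above background in some livers, isotig16003 and isotig15834 among them, with fed liver means of 4.58 or less.

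Only 26 sequences were measured in all 16 livers, and for these the small liver difference is a measured one on the processed signals. On the normalised scale the liver differences of the 71 had a median of -0.04 and ran from -0.56 to 0.13. There isotig02276 (-0.56) and IFXJFUR02I9X6V (-0.51), both among the 26, lay outside the limit of 0.5. Abundant in both tissues were isotig10183, with 14.44 in starved and 16.74 in fed muscle and 13.41 in starved and 13.29 in fed liver, and isotig03938, with 12.37 in starved and 15.61 in fed muscle and 10.86 in starved and 11.05 in fed liver. The brightest in muscle was IFXJFUR01AIENO, with 16.52, 15.25, 16.42 and 14.25 in starved fish and a lowest value of 17.05, a median of 17.93 and a highest value of 19.60 in fed fish, while its liver means were 9.88 in starved and 9.58 in fed fish. Next to it was IFXJFUR01EWPSJ, with 16.12, 15.67, 15.73 and 14.12 in starved muscle and between 16.56 and 18.89 in fed muscle. In both reads starved fish 4 was the lowest.

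**Figure D3:**
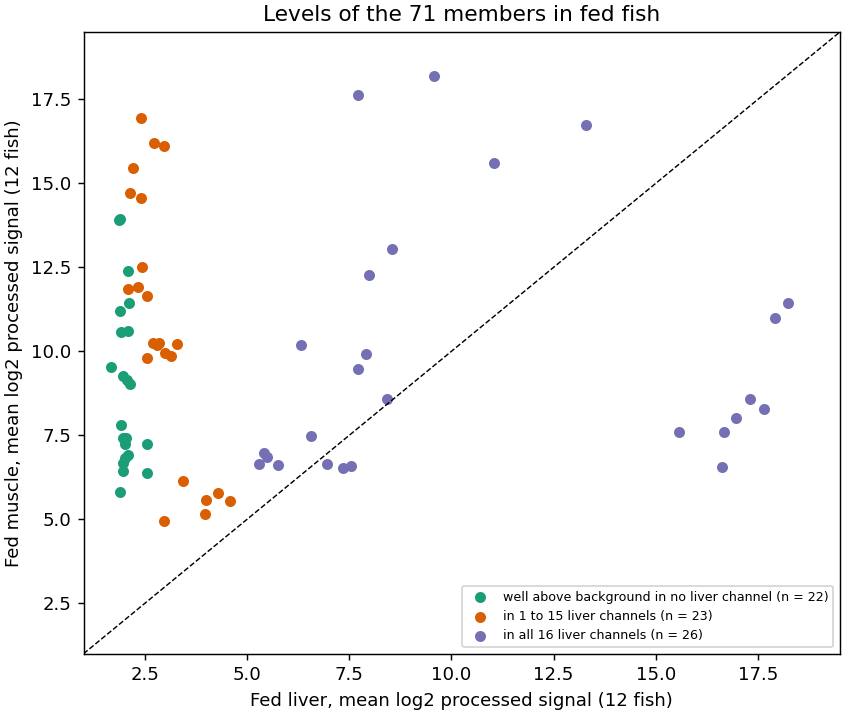
Mean log2 processed signal of the 71 sequences in fed muscle (vertical, 12 fish) against fed liver (horizontal, 12 fish), coloured by the number of liver channels well above background, with the line of equal signal dashed. The 22 sequences without signal in any liver lie at the left edge, and 8 sequences lie far to the right with a fed liver mean of at least 15.

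The limit on the liver was set on the mean of the 3 diets, which can hide differences between them. Of the 26 sequences measured in all livers, 15 had a starved mean at least 0.5 away from that of 1 diet or more, and 2 at least 1 away. One of these was isotig13047, at -1.03 for starved minus HLL, -0.39 for starved minus LLH and 0.20 for starved minus MHL. The other was isotig06565, which was 2.40 higher in starved than in LLH liver, 0.17 higher than in MHL liver and 1.76 lower than in HLL liver. Its HLL mean includes the fish with conflicting labels, at 11.83, so that the sizes against HLL and LLH depend on that label. By the titles, isotig06565 was the only sequence of the 26 with differences of at least 0.5 in opposite directions. Its liver mean for starved minus fed, 0.27, was an average over these.

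A set of 8 sequences was far more abundant in liver than in muscle, with a fed liver mean of at least 15. These were IFXJFUR02JGGC8, isotig04119, IFXJFUR02HF9P3, IFXJFUR02IA8XL, IFXJFUR02J23BD, IFXJFUR02I9X6V, isotig04716 and isotig02276. For IFXJFUR02JGGC8 the muscle values were 5.80, 4.14, 5.17 and 5.02 in starved fish and between 6.58 and 10.22 in fed fish, against liver means of 18.09 in starved and 17.65 in fed fish. For IFXJFUR02J23BD they were 9.44, 7.90, 9.47 and 8.68 in starved muscle and between 9.82 and 13.44 in fed muscle, and 18.70 in starved and 18.24 in fed liver. Their muscle differences had a median of -2.62, against -3.04 for the other 63.

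Other sequences of this kind moved in the same direction in muscle. The array held 624 sequences with a fed liver mean of at least 15, of which 426 had a lower mean in starved than in fed muscle, with a median difference of -1.07. Of the 380 that were also at least 5 lower in fed muscle than in fed liver, which include the 8, 348 were lower in starved muscle and 127 by 2 or more, with a median of -1.76. The median signal of these 380 was 6.75, 5.02, 5.49 and 5.38 in the starved muscles 1 to 4. In fed muscle it lay between 5.61 (LLH fish 3) and 9.33 (HLL fish 1), with 8.86 in HLL fish 3 and 8.35 in MHL fish 1, so that starved fish 1 lay within the range of the fed fish. The liver marker PKL had 5.68 in HLL fish 1, 6.82 in HLL fish 3 and 5.75 in MHL fish 1. Its lowest value in fed muscle was 5.10 (LLH fish 2). In the starved muscles 1 to 4 PKL had 6.47, 5.70, 6.54 and 6.47, so that it was not lower there. Over the 12 fed muscles the 8 sequences followed the median of the remaining liver-abundant sequences with r between 0.48 and 0.99 (median 0.95), and the other 63 sequences with a median r of -0.06. The part of liver-abundant RNA in the decrease of the 8 sequences was not tested. Without HLL fish 1, HLL fish 3 and MHL fish 1, left out after seeing the data, the 8 had a median muscle difference of -2.08 (between -2.99 and -1.74). Of the 8, 6 were at or below -2, and the other 63 had a median of -3.07. The fish left out had the highest medians of the 8 sequences among the fed fish (9.73, 9.30 and 9.07). A smaller difference of the 8 without them therefore follows from the choice of fish and tells nothing about its cause.

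**Figure D4:**
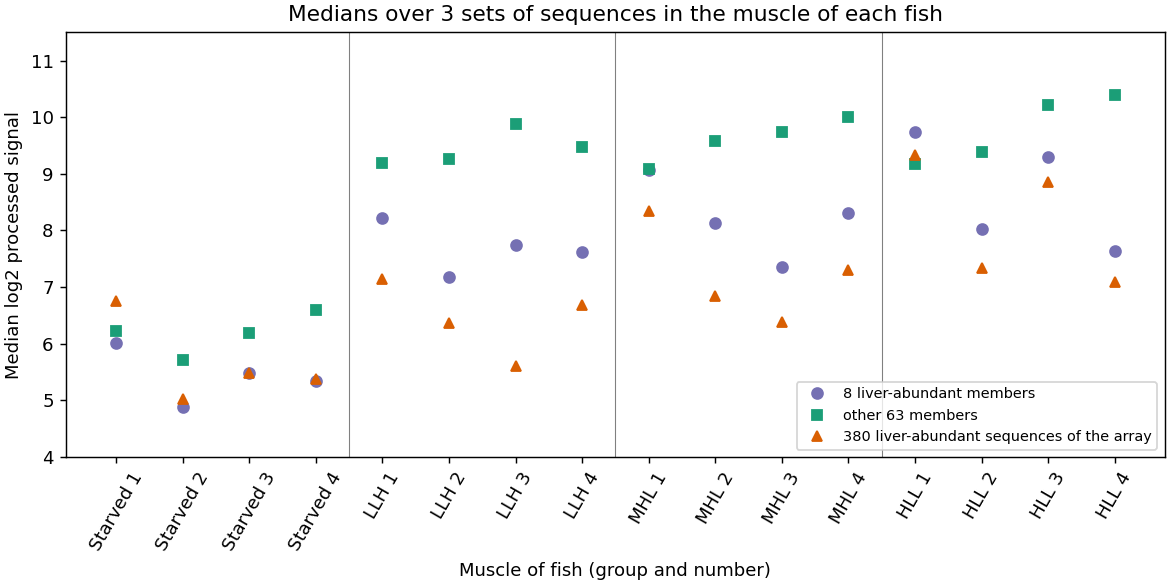
Median log2 processed signal over the 8 liver-abundant sequences (circles), the other 63 sequences (squares) and 380 liver-abundant sequences of the array (triangles) in the muscle of each fish. Circles and triangles are both highest in HLL fish 1, while the squares are highest in HLL fish 4. The circles do not follow the triangles in every fish. LLH fish 3 has the lowest triangle of the fed fish (5.61), with a circle of 7.74, above that of LLH fish 2 (7.17).

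Among fed fish the sequences did not vary as 1 block. After removing the mean of each diet, the 2485 pairs of sequences correlated over the 12 fed muscles with a median r of 0.48, which was 0.14 after centring each channel on its median, and 114 pairs had r over 0.9. Linking all sequences with r over 0.95, on signals without this centring, gave 10 sets with 36 of the 71 sequences. The median over all sequences of the array also differed between the fed muscles, from 5.23 (MHL fish 3) to 6.40 (HLL fish 4). The part of this brightness in the sets was not tested. HLL fish 3 and 4 and LLH fish 3 and 4 each shared an array with a starved fish, and the other fed fish shared arrays in pairs. All were on the same slide, and the correlations are given as a description.

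The largest set held 9 sequences (isotig09913, isotig04817, isotig07702, contig00793, isotig15834, isotig12026, isotig16554, isotig10806 and isotig10679), with a median r of 0.93 between them. It was highest in MHL fish 4 and lowest in HLL fish 1, and its ranges over fed fish lay between 2.61 and 6.29 (contig00793), with 5.90 for isotig09913. The widest range of the 71, 7.46, was that of isotig04816, which was not linked to this set. In contig00793 the muscle values were 11.29, 10.22, 10.65 and 10.06 in starved fish and between 11.38 and 17.68 in fed fish, so that fed fish differed more than the means of starved and fed fish. The median r of the 9 sequences with the median of the liver-abundant sequences was -0.61, opposite to that of the 8 liver-abundant sequences.

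The second set held 7 dim sequences (isotig13047, isotig12064, isotig09409, isotig13603, isotig15693, isotig12803 and IFXJFUR02HUHLD), with ranges over fed fish of 1.27 to 1.71. Its median was highest in HLL fish 4, the fed muscle with the highest median over all sequences. Another set held 5 of the 8 liver-abundant sequences, with a median r of 0.98 and the highest median in HLL fish 1. The remaining sets were IFXJFUR01DBPQI with IFXJFUR01DHKVV and IFXJFUR01EHZVF, and 6 pairs, among them isotig06565 with isotig06034 (r = 0.96), isotig06309 with isotig03938 (r = 0.96) and IFXJFUR01AIENO with IFXJFUR01EWPSJ (r = 0.97). Between the 8 liver-abundant sequences and the other 63 the median r was -0.30.

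Differences between diets were not used by the rule. They were tested with limma on the normalised log2 intensities of all sequences, two-sided, with adjustment by the Benjamini-Hochberg method. The starved fish were in the fit for the common estimate of the spread. Differences given with an SE are estimates of this fit, which takes dye and array into account. They can depart from the difference of the group means. In muscle, LLH against HLL gave adjusted P values below 0.05 for 3 of the 71 sequences, all lower in LLH. This is 4.23% of them, against 0.234% of all 25222 sequences tested, or 0.0674% when only those lower in LLH are counted. A fit of the log ratios of the arrays called none of the 71 and no sequence of the array, and leaving out 1 fish at a time left 0 of the 71 without HLL fish 1 or LLH fish 1, 1 without any of 10 other fish, and 2 or 3 without the remaining 4.

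The first of these was isotig14411. Its processed signal was 6.24, 5.91, 5.92 and 7.11 in LLH muscle, against 6.71, 6.67, 7.81 and 8.07 in HLL muscle, with 1 LLH fish within the range of the HLL fish. On the normalised scale the LLH and HLL fish did not overlap. There isotig14411 averaged 7.05 ± 0.16 in LLH and 7.61 ± 0.13 in HLL muscle (SD, n = 4 each), with a fitted difference of -0.57 ± 0.08 (SE, limma adjusted P = 0.0204). It was called in 22 of 29 alternative fits, over which the adjusted P ran between 0.0036 and 0.337.

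The second was isotig06565, with 11.08, 11.56, 12.70 and 11.87 in LLH muscle, against 12.16, 12.74, 13.42 and 13.88 in HLL muscle. The normalised means were 11.35 ± 0.43 in LLH and 12.57 ± 0.22 in HLL muscle (SD, n = 4 each), with a fitted difference of -1.26 ± 0.22 (SE, limma adjusted P = 0.0459). The third was isotig06309, with 11.65, 11.95, 12.75 and 12.75 in LLH muscle, against 12.37, 12.64, 13.41 and 13.63 in HLL muscle. Its fitted difference was -0.81 ± 0.15 (SE, limma adjusted P = 0.0479). The normalised means of isotig06309 were 11.63 ± 0.23 in LLH and 12.40 ± 0.15 in HLL muscle (SD, n = 4 each). In both sequences fish of the diets overlapped in the processed signal, but not on the normalised scale that was tested. The adjusted P of both lay close to the threshold. They were called in 8 and 6 of 29 alternative fits, and their differences stayed below 0 in all 29, between -1.55 and -1.11 for isotig06565 and between -1.04 and -0.70 for isotig06309.

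In liver, LLH against HLL called 1 of the 71 sequences, again isotig06565, against 2.19% of all 25225 tested. Its signal was 5.11, 6.75, 5.41 and 6.18 in LLH liver, against 11.83, 10.15, 9.36 and 8.74 in HLL liver, with no overlap. The normalised difference was -3.11 ± 0.49 (SE, limma adjusted P = 0.0116), and it was called in 26 of 29 alternatives. The HLL fish with 11.83 is the one with conflicting labels. Without it the difference was -2.53 (limma adjusted P = 0.0133), and with that fish counted as LLH it was -1.72 (limma adjusted P = 0.604). With the labels of the titles, the sequence was lower in LLH than in HLL fish in both tissues. The difference was 1.26 in muscle and 3.11 in liver on the log2 scale. The size and the call in liver depended on the label of that fish, and the call in muscle was kept in 8 of 29 alternative fits. Whether the sizes in muscle and liver differ was not tested.

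**Figure D5:**
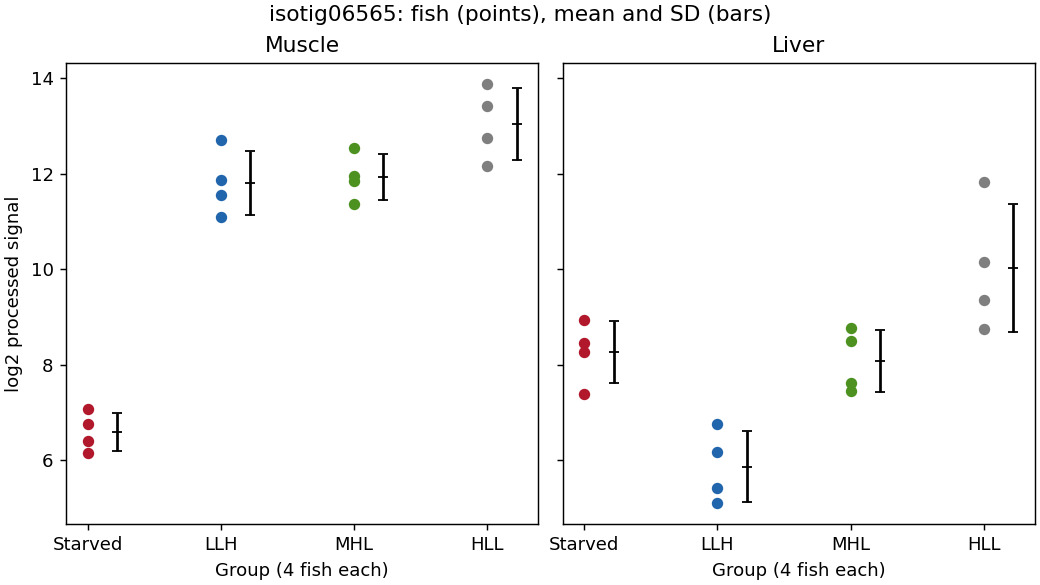
Log2 processed signal of isotig06565 in each fish (points) with the mean and SD of 4 fish (bars), in muscle (left) and liver (right), for starved, LLH, MHL and HLL fish. In muscle the starved fish lie between 6.14 and 7.07, below all fed fish, and in liver they lie between 7.38 and 8.94, above the LLH fish (5.11 to 6.75) and overlapping with HLL fish (8.74 to 11.83).

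In muscle, LLH against MHL called 0 of the 71 sequences in limma's fit of separate channels, against 0% of all sequences, and 0 in the fit of log ratios. At an unadjusted P below 0.05 it had 21 of the 71 (29.6%), all lower in LLH, against 6.13% of all sequences, or 2.51% counting those lower in LLH. Among the 14990 tested sequences well above background in all fed muscles, as the 71 are by the rule, 3.39% were lower in LLH at this level. Closest to the threshold were isotig14411, with a difference of -0.62 ± 0.08 (SE, adjusted P = 0.0717), isotig12803, with -0.62 ± 0.10 (SE, adjusted P = 0.137), and isotig18389, with -0.21 ± 0.05 (SE, adjusted P = 0.355). For LLH against HLL the unadjusted count in muscle was 17 of the 71 (23.9%), all lower in LLH, against 11.7% of all sequences, or 5.51% counting those lower in LLH. Among the same 14990 sequences 7.28% were lower in LLH.

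The direction was shared by most of the 71. LLH minus MHL was below 0 in 57 (80.3%), with a median of -0.37, and LLH minus HLL in 51 (71.8%), with a median of -0.21, whereas 48.2% and 47.2% of all sequences were below 0, with medians of 0.00 and 0.00. Of the 14990 tested sequences that were well above background in all fed muscles, 48.3% were below 0 for LLH minus MHL and 47.9% for LLH minus HLL. Both comparisons share the LLH fish and many of the 71 ran together, so that these counts are not independent. The 8 liver-abundant sequences were all lower in LLH than in HLL muscle, with a median of -0.87, in the comparison in which HLL fish 1 and 3 had the highest liver-abundant medians. The other 63 had a median of -0.16, with 43 below 0. The spread within diets, on the median 0.40 for a sequence, was as large as the median shift.

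MHL against HLL in muscle called 0 of the 71 sequences, against 0.0159% of all, with 7 of the 71 (9.86%) at an unadjusted P below 0.05, against 10.2% of all. The fit of log ratios also called 0. The median difference was 0.01 and 35 of the 71 were below 0. The smallest adjusted P was that of isotig12263, with 0.78 ± 0.28 (SE, adjusted P = 0.354), followed by isotig06565, with -0.60 ± 0.22 (SE, adjusted P = 0.358), and isotig15020, with -0.66 ± 0.28 (SE, adjusted P = 0.454).

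In liver the remaining comparisons called 0 of the 71 in both fits. For MHL against HLL, where 1.5% of all sequences were called, 8 of the 71 (11.3%) had an unadjusted P below 0.05, all lower in MHL, against 15.5% of all. The smallest adjusted P values were those of isotig17356, with -0.31 ± 0.08 (SE, adjusted P = 0.0850), IFXJFUR02HUHLD, with -0.58 ± 0.16 (SE, adjusted P = 0.0886), and isotig06565, with -1.46 ± 0.48 (SE, adjusted P = 0.150). For LLH against MHL, where 0.00396% of all sequences were called, 3 of the 71 (4.23%) had an unadjusted P below 0.05, against 8.89% of all. Lowest was isotig06565, with -1.65 ± 0.48 (SE, adjusted P = 0.278), then isotig15693, with 0.31 ± 0.13 (SE, adjusted P = 0.522), and isotig04716, with 0.36 ± 0.16 (SE, adjusted P = 0.553). For LLH against HLL in liver 5 of the 71 (7.04%) had an unadjusted P below 0.05, against 14.9% of all.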

How the data were processed

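Total RNA of liver and white skeletal muscle of 4 fish per group was hybridised on two-colour arrays by the authors. They deposited, for each array, raw and processed intensities per spot with flags for spots well above background, as written by Agilent Feature Extraction 10.7, and a table of normalised log2 ratios of the dyes. Probe sequences and genome positions were not used here. The 1319 control spots per array were left out.

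The 71 sequences and the lists were chosen with earlier results of these data known. Named are the 10 most negative, those nearest the limits, the 3 brightest and dimmest in fed muscle, those called or nearest to a call between diets, and neighbouring numbers. Others were picked after their values were seen.

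Tests used R 4.3.3 and limma 3.58.1 on raw medians, with normexp (offset 50), Loess, Aquantile, averaged probes, group and dye as terms and array as random block. Alternatives changed the fit, background, normalisation, probes and fish. In simulated data for LLH against HLL, 178 of 200 sequences changed by 1 were found in muscle (25222 tested), with 4 false calls, and 171 in liver (25225 tested), with 9. Such shares need not hold for the chosen sequences, whose SE differed widely. For LLH minus HLL in muscle, IFXJFUR02HF9P3 was not called at -1.59 ± 0.73 (SE, limma adjusted P = 0.425). By contrast, isotig14411 was called at -0.57 ± 0.08 (SE, limma adjusted P = 0.0204). Nothing in the labels says how the 4 fish of a group were kept, so that P values measure the spread between these fish. The number of arrays limits the precision.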

Additional observations from a re-analysis of the deposited data

Results flagged for a closer look

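In 5 of 124 groups of 4 fish examined, 1 fish lay far from the other 3 by Dixon's test at 95%, which flags about 1 in 20 groups by chance. For isotig04816 in starved muscle this was fish 2, at 1.5, with the others between 2.57 and 2.77, all of them at background. In MHL muscle it was fish 4 for isotig14411, at 7.36 against 6.74 to 6.80, fish 1 for isotig12263, at 9.41 against 10.69 to 10.93, and fish 2 for isotig02981, at 12.84 against 13.80 to 13.95, and for isotig02982, at 12.88 against 13.83 to 14.00.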

How the results depend on the processing

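For LLH against HLL in muscle, 3 sequences were called. The count was 0 with the authors' log2 ratios, the brightest probe or log ratios, 1 with median centring, no background correction or a normexp offset of 0, and 14 without normalisation between arrays, where 1373 of all sequences were called. Without HLL fish 1 and 3 together, an alternative chosen after seeing the data, it was 0. Leaving out each fish gave 0 to 3, with 0 for HLL fish 1 and LLH fish 1, 1 for 10 fish (HLL fish 2, 3 and 4, LLH fish 2 and 4, MHL fish 1 and 3, starved fish 2, 3 and 4) and 2 or 3 for the other 4. LLH against MHL in muscle went to 1 with no dye term, quantile normalisation or without HLL fish 1 and 3, to 10 without normalisation between arrays, and to 0 to 1 leaving out each fish. MHL against HLL in muscle went to 5 without normalisation between arrays. The liver call for LLH against HLL went to 0 with log ratios, the authors' log2 ratios or the fish of conflicting labels as LLH. The causes were not tested. Same-numbered fish had a median r of 0.04 in muscle (between -0.19 and 0.48) and 0.00 in liver (between -0.26 and 0.15). These medians cannot decide whether fish numbers pair the samples. The fish number as a replicate block gave 4 and 1 calls for LLH against HLL in muscle and liver and 0 in the other comparisons, while over all sequences the muscle count was 439 in place of 59.

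Of 202 medians over the 71 sequences computed again, 198 moved by less than the spread between fish. In muscle the spread within diets was on the median 0.40 for a sequence, larger than the median differences between diets. The count therefore does not show that those medians were stable. With processed signals the liver median was 0.17 for LLH minus MHL and -0.20 for MHL minus HLL, which was -0.13 over the 35 sequences left by a filter on dim probes. The muscle median for starved minus fed was -2.20 after normexp, Loess and Aquantile, and between -3.52 and -2.46 otherwise. That of the liver lay between -0.24 and 0.34.

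The number of sequences that met the rule was 117 at a muscle threshold of -1.5, 36 at -3, 49 and 110 at liver limits of 0.25 and 1, and 74 with no filter on detection. It was 101 on normalised values, with 39 of the 71 among them, and 167 on channels centred on their medians (an alternative chosen after seeing the data), with 60 of the 71. Signal over background limits the levels: 11 sequences were well above background in no starved muscle and 22 in no liver.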
